A study of Mus musculus with 6 samples.

Results

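The genes of the tight and adherens junctions of endothelium were followed in glomerular endothelial cells (GEC) of normal and db/db mice. They were 9 genes chosen by name, *Cldn5*, *Ocln*, *F11r*, *Jam2*, *Jam3*, *Esam*, *Tjp1*, *Cgnl1* and *Cdh5*, of 19938 genes with a probeset of their own on the array, and each was read by 1 probeset. The normal samples carried the genotype Tie2-GFP/ +/+ and the diabetic samples Tie2-GFP/ DB/DB, a homozygous mutation that removes the function of the leptin receptor in the whole animal and leads to obesity and diabetes. Both groups came from mice aged 7 months, with 3 arrays per group, and both carried the Tie2-GFP transgene, whose Tie2 promoter marks endothelium but is also known to be active in some blood cells. The GFP positive cells were sorted from sieved and dissociated glomeruli, so all values are sums over a sorted population, in which fewer cells of a type and less RNA per cell cannot be told apart. The labels call the samples biological replicates, and strain, sex and the number of mice per sample were not given in the sources used here.

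Endothelial cells seal the gaps between them with tight junctions, in which claudins and occludin cross the membrane as strands and the JAM proteins, single-span members of the immunoglobulin family, adhere beside them. Scaffold proteins such as ZO-1 and paracingulin tie these membrane proteins to actin. Adherens junctions lie alongside, built on VE-cadherin and its catenins, and they hold the cells together and restrain leakage of plasma. The glomerular endothelium is perforated by fenestrae through which fluid passes, while its cell borders still carry junctions.

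Values are log2 probeset signal as deposited, and a probeset was tested where its signal reached 100 on the linear scale (6.64 on the log2 scale) in at least 3 arrays. Markers of endothelium and genes of other cell types were measured. All 9 pan-endothelial markers lay above that level, and so did all 4 markers of glomerular endothelium. The paper names these 4 (*Ehd3*, *Sema5a*, *Gata5* and *Nostrin*) from its own screen for genes higher in GEC with a raw signal above 100. Their passing the level therefore does not check the label. Of 7 podocyte markers 4 were above it, of 8 mesangial 3, of 6 parietal epithelial 3, of 8 proximal tubular 3, of 7 distal nephron 4, of 9 leukocyte 4 (not *Ptprc*, which marks most leukocytes), of 4 platelet 4 and of 2 red cell enzyme and membrane genes 2. Of all 19938 genes 12763 passed this level, so passing it is weak evidence that a cell type was present. Along the main axis of variation between the arrays (30.5% of the variance) normal replicate 2 was far from the other 5, and values without it are given for some of the genes. Signal of alpha-globin was lower in db/db, at 9.42 ± 0.66 against 11.48 ± 0.20 (log2, mean ± SD, n = 3 per group).

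The question put to these genes was whether their levels differ between glomerular endothelium of diabetic mice, a model of diabetic nephropathy, and that of normal mice. *Cldn5* had the highest difference, with a mean 1.97-fold higher in db/db, and *Cdh5*, which encodes VE-cadherin, had a mean 1.15-fold higher with little spread between arrays. *Jam3* and *F11r* had means 1.36-fold and 1.34-fold higher with arrays that overlapped between the groups, while *Jam2*, *Esam*, *Tjp1* and *Cgnl1* had means between 0.921-fold and 1.15-fold of normal. *Ocln* was below the level in each of the 6 arrays. With limma and adjustment over all 20661 probesets 0 of the 8 tested genes passed, as did 0 of the 12763 genes tested (0% called), and the methods' t-test also gave 0 after adjustment. The paper reports no such adjustment for its own screen of these groups. At an unadjusted p under 0.05 there were 2 of the 8, *Cldn5* and *Cdh5*, against 6.57% of all genes (6.39% of all probesets). Both were higher in db/db, against 3.49% of all genes, and 0 were lower, against 3.07%. The same pair had groups that did not overlap, which held for 13.3% of all genes, with 7.39% higher and 5.92% lower in db/db. In 7 of the 8 tested genes the db/db mean was the higher one, compared with 53.7% of all genes, and the median change was 0.21 on the log2 scale against 0.01 over all genes.

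**Figure D1:**
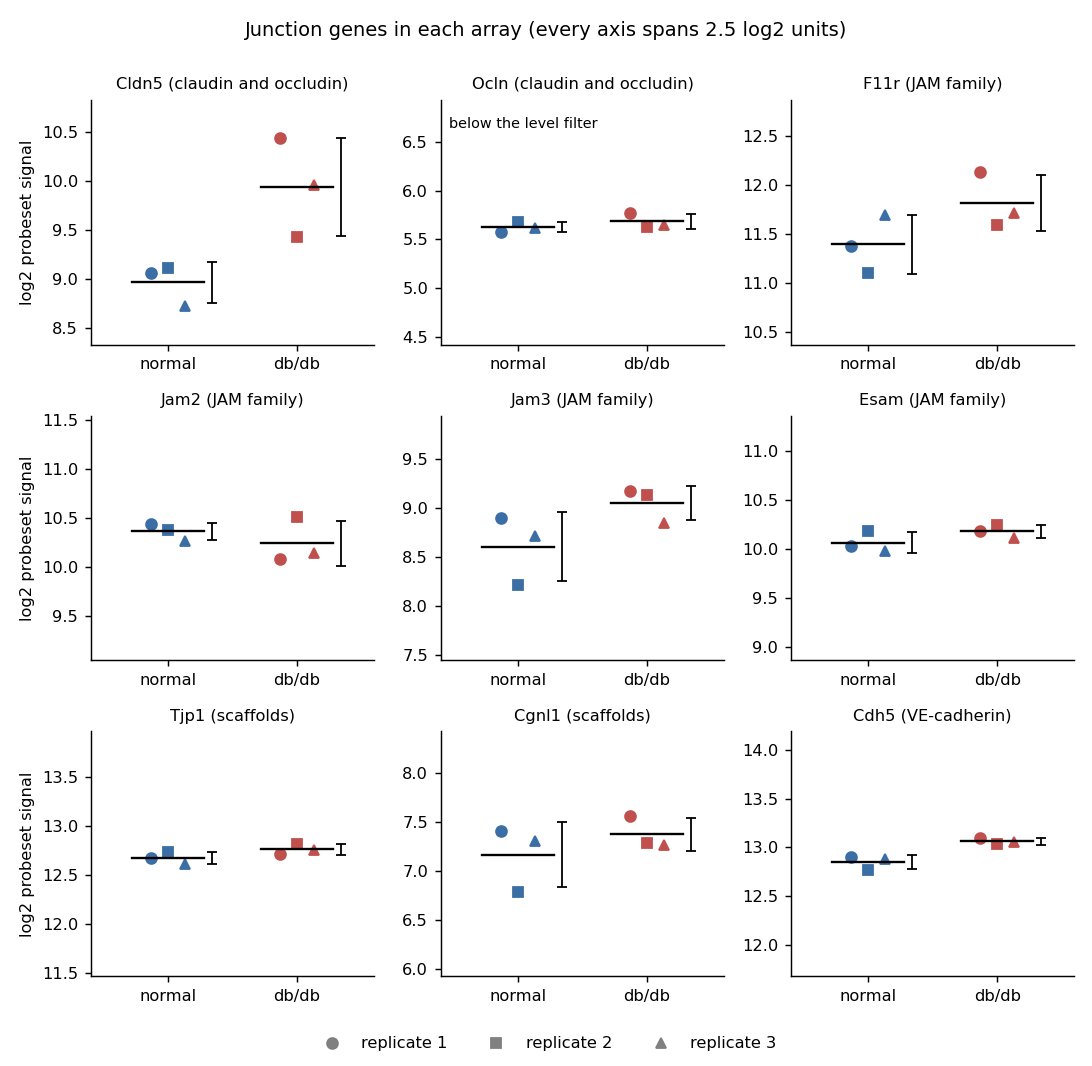
Log2 probeset signal (vertical axes, all of the same span) of the 9 junction genes in each array (points, shaped by replicate) of the normal and the db/db group, where lines mark means and bars the SD of 3 arrays. The groups are apart for Cldn5 and Cdh5, and Ocln lies near 5.6 in both groups, below the level filter.

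*Cldn5* encodes claudin-5, the main claudin of endothelial tight junctions and the one that limits small molecules at the blood-brain barrier. Its signal was 9.07, 9.11 and 8.73 in normal replicates 1 to 3 and 10.44, 9.43 and 9.96 in db/db replicates 1 to 3. Each db/db array lay above each normal array, by 0.32 at the closest, and the db/db arrays spread over 1.01 among themselves. The log2 change was 0.98 ± 0.27 (SE), with a 95% interval from 0.30 to 1.65, and it did not pass after adjustment (limma adjusted p = 0.645). A larger change, in either direction, was found in 0.744% of the genes tested. Without each array in turn the change ran from 0.73 (without db/db replicate 1) to 1.23 (without db/db replicate 2), with an unadjusted p under 0.05 each time, and it was 1.05 without normal replicate 2. The difference was as large, 0.98, when each array was centred on its pan-endothelial markers.

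Markers of other vessels were read beside *Cldn5*, and 0 of them passed after adjustment. The summed linear signal of 10 arterial markers ran from 15315 to 16418 in normal and from 16906 to 18322 in db/db arrays, where 2 of 9 tested were higher (*Gja5* and *Mgp*) and 2 lower (*Sox17* and *Eln*) at an unadjusted p under 0.05 (6.57% of all genes), and their median change was -0.10 on the log2 scale. That of 7 peritubular and venous markers ran from 12380 to 13795 in normal and from 17694 to 21997 in db/db, with 3 of 7 higher at that p (*Gpihbp1*, *Cd36* and *Aplnr*). The paper reports *Gpihbp1* and *Aplnr* (there named *Agtrl1*) as higher in db/db GEC, with more of both proteins stained in db/db glomeruli. This sum thus holds genes already reported to change in GEC. Of 4 lymphatic markers 3 were tested and *Lyve1* was higher at that p, with sums from 752 to 989 in normal and from 1002 to 1101 in db/db. The 4 glomerular markers summed to 16165 to 18573 in normal and 14618 to 16301 in db/db, with *Sema5a* and *Gata5* lower at an unadjusted p under 0.05. Sums of 7 podocyte markers (1020 to 1157 in normal, 970 to 1055 in db/db), of 8 mesangial markers (953 to 1133 and 1107 to 1246) and of 2 red cell genes (284 to 309 and 270 to 300) overlapped between the groups, with *Cdkn1c* of the podocyte markers lower at an unadjusted p under 0.05. Alpha-globin, which is not among those 2 red cell genes, did not overlap, at 11.35 to 11.71 in normal and 8.68 to 9.94 in db/db (log2). *Plvap*, the diaphragm protein of capillaries outside the glomerulus, had a change of 0.10. The 7 peritubular and venous markers had a median change of 0.40, with higher means in db/db for 6. *Bmx* alone of the 10 arterial markers and *Prox1* alone of the 4 lymphatic markers were below the level. The part of any of these cells in the *Cldn5* difference was not tested.

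*Ocln* encodes occludin, the other strand protein of the set. Its signal was 5.58, 5.68 and 5.62 in normal and 5.77, 5.63 and 5.65 in db/db replicates 1 to 3. The arrays of the groups overlapped and 0 of 6 reached the level, so *Ocln* was not tested and no fold is given.

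Promoter sequences from RefSeq (build GRCm38.p6), each from 250 bases before to 50 bases after a gene's start, were listed for 5 of the 9 genes. They are shown for *Cldn5*, the gene with the smallest p, for *F11r*, whose mean was higher with overlapping arrays, and for *Tjp1*, which differed little, so that they can be set side by side. Capitals mark the CCAAT box (CCAAT or its complement ATTGG) and the GC box (GGGCGG or CCGCCC), both searched on both strands, with no overlap between these letters. They are written 5′ to 3′ along the gene.
Cldn5, chr16:18776597-18776896, plus strand: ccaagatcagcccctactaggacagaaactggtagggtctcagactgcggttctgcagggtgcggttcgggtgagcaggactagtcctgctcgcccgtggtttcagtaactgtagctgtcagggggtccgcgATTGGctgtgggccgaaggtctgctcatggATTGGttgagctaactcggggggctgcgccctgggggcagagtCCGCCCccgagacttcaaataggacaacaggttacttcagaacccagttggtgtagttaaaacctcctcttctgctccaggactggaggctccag
F11r, chr1:171437311-171437610, plus strand: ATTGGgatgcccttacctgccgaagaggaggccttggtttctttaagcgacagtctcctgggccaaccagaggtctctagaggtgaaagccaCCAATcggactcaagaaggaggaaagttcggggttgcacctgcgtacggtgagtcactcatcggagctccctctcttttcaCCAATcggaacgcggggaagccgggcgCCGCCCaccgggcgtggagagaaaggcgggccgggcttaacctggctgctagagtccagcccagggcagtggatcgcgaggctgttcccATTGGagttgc
Tjp1, chr7:65371195-65371494, minus strand: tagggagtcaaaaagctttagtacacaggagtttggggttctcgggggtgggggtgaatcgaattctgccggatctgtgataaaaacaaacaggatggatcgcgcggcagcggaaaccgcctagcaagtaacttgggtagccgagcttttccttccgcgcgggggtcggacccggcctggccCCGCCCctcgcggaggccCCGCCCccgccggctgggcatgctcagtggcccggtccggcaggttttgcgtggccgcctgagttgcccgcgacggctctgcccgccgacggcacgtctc

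The *Cldn5* window held 2 CCAAT boxes, that of *F11r* held 4 and that of *Tjp1* held 0, while 37.4% of all 32851 promoter windows held at least 1. The GC box was found once in *Cldn5*, once in *F11r* and at 2 places in *Tjp1*, and 35.7% of all windows held it. The longer forms of an ETS site that were searched, CCGGAA and AGGAAG, were in none of the 3 windows, nor was the forkhead motif TGTTTAC. The shorter letters GGAA, common to both forms, were not searched. They or their complement TTCC can be read in the *F11r* and *Tjp1* windows. An E-box of the Snail type, CAGGTG, was found in *F11r* alone of these 3, and 20.2% of all windows held it. The windows had a GC content of 58.3% in *Cldn5*, 60.3% in *F11r* and 65.3% in *Tjp1*, against a median of 52.7%. These matches are descriptions of letters, and no binding was measured.

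The JAM family held 4 genes, of which 3 had higher and 1 had lower means in db/db, and 0 passed with or without adjustment. *F11r* encodes JAM-A, found in endothelium, epithelium, platelets and leukocytes. Its signal was 11.37, 11.11 and 11.70 in normal and 12.14, 11.59 and 11.71 in db/db replicates 1 to 3. Normal replicate 3 lay above db/db replicate 2 and next to db/db replicate 3, so the groups overlapped. Its log2 change was 0.42 ± 0.21 (SE, limma adjusted p = 0.822), and it was 0.28 without normal replicate 2 and 0.26 without db/db replicate 1. Of the leave-one-out fits that without normal replicate 3 alone gave an unadjusted p under 0.05 (change 0.57, adjusted p = 0.685). The summed signal of 9 leukocyte markers ran from 1381 to 2038 in normal and from 1172 to 2182 in db/db, and that of 4 platelet markers from 808 to 1168 and from 563 to 919, both with overlap. *Cd68* was the only leukocyte marker of 4 tested that was higher at an unadjusted p under 0.05.

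*Jam3* encodes JAM-C, which endothelial cells carry at their borders and which leukocytes meet as they cross. Its signal was 8.89, 8.21 and 8.71 in normal and 9.17, 9.13 and 8.85 in db/db replicates 1 to 3. Normal replicate 2 was the lowest by far, and normal replicate 1 lay above db/db replicate 3. The difference was 0.44 ± 0.20 on the log2 scale (SE, limma adjusted p = 0.805), and it was 0.25 ± 0.14 without normal replicate 2. Without normal replicate 1 it was 0.59, with an unadjusted p under 0.05 (adjusted p = 0.77).

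*Jam2* encodes JAM-B, the partner that JAM-C binds on neighbouring cells. Its signal was 10.44, 10.38 and 10.26 in normal and 10.08, 10.51 and 10.14 in db/db replicates 1 to 3. It was the single gene of the 8 with a lower mean in db/db, and db/db replicate 2 was the highest of its 6 arrays. Its log2 change was -0.12 ± 0.14 (SE, limma adjusted p = 0.916), with a 95% interval from -0.46 to 0.22, and it was -0.25 ± 0.10 without db/db replicate 2, -0.04 without db/db replicate 1, -0.07 without db/db replicate 3 and -0.08 without normal replicate 1. A test of the difference between *Jam2* and *Jam3* was not made.

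*Esam* encodes an endothelial adhesion molecule of the same kind that is also present on platelets. Its signal was 10.03, 10.18 and 9.98 in normal and 10.18, 10.24 and 10.11 in db/db replicates 1 to 3. The arrays of the groups interleaved. *Esam* had a log2 change of 0.11 ± 0.09 (SE, limma adjusted p = 0.882), and the 95% interval of the fold ran from 0.923 to 1.27, on both sides of 1. The change of *Esam* was 0.17 without normal replicate 2 and 0.07 without normal replicate 3.

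The 2 scaffold genes did not differ beyond the spread between arrays. *Tjp1* encodes ZO-1, which links claudins, occludin and the JAM proteins to actin and also binds at adherens junctions. Its signal was 12.67, 12.74 and 12.61 in normal and 12.71, 12.82 and 12.75 in db/db replicates 1 to 3, all within a narrow band. The log2 change of *Tjp1* was 0.09 ± 0.08 (SE, limma adjusted p = 0.901), and the 95% interval of the fold ran from 0.926 to 1.22. Without normal replicate 3 the change of *Tjp1* was 0.06, and without normal replicate 2 it was 0.12. *Cgnl1* encodes paracingulin, a scaffold found at both junctions. Its signal was 7.40, 6.78 and 7.30 in normal and 7.56, 7.28 and 7.27 in db/db replicates 1 to 3. Normal replicate 2 was lowest and the other 5 arrays lay close together. The log2 change of *Cgnl1* was 0.21 ± 0.19 (SE, limma adjusted p = 0.902), and it was 0.02 ± 0.13 without normal replicate 2, 0.11 without db/db replicate 1 and 0.33 without normal replicate 1. Both scaffolds are also used by tubular epithelium, and the summed signal of 7 distal nephron markers ran from 607 to 714 in normal and from 745 to 880 in db/db, with 0 of 4 tested past an unadjusted p of 0.05. For 8 proximal tubular markers the sums overlapped, from 706 to 738 and from 726 to 904, as did those of 6 parietal epithelial markers, from 621 to 687 and from 618 to 739. The part of these cells was not tested.

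*Cdh5* encodes VE-cadherin, the cadherin of endothelial adherens junctions and a target of vascular permeability signals. Its signal was 12.90, 12.78 and 12.88 in normal and 13.10, 13.03 and 13.06 in db/db replicates 1 to 3. Each db/db array lay above each normal array, by 0.13 at the closest, and the SD was 0.07 in normal and 0.03 in db/db. The difference was 0.21 ± 0.08 on the log2 scale (SE), with a 95% interval from 0.01 to 0.40 (limma adjusted p = 0.754). A larger change was found in 25.9% of the genes tested. With any 1 of the 6 arrays left out its unadjusted p was over 0.05, with changes from 0.17 (without normal replicate 2) to 0.23. With all 6 arrays the unadjusted p of *Cdh5* depended on the test. It was 0.0399 in the limma fit used here. It was 0.0038 in limma with a variance prior that follows intensity (adjusted p = 0.516) and 0.0090 by the methods' t-test (adjusted p = 0.712). In limma with a replicate block it was 0.093 (adjusted p = 0.825). The 9 pan-endothelial markers summed to 50779 to 51763 in normal and 50141 to 52689 in db/db, with overlap. Singly, 4 of the 9 were higher in db/db without overlap (7.39% of all genes) and 2 were lower without overlap (5.92%). Among them *Kdr* and *Pecam1* were higher, with changes of 0.10 and 0.07, and *Tek* was lower, at -0.33. After centring on the 9 markers, which could change little, the change of *Cdh5* was 0.21 as well.

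**Figure D2:**
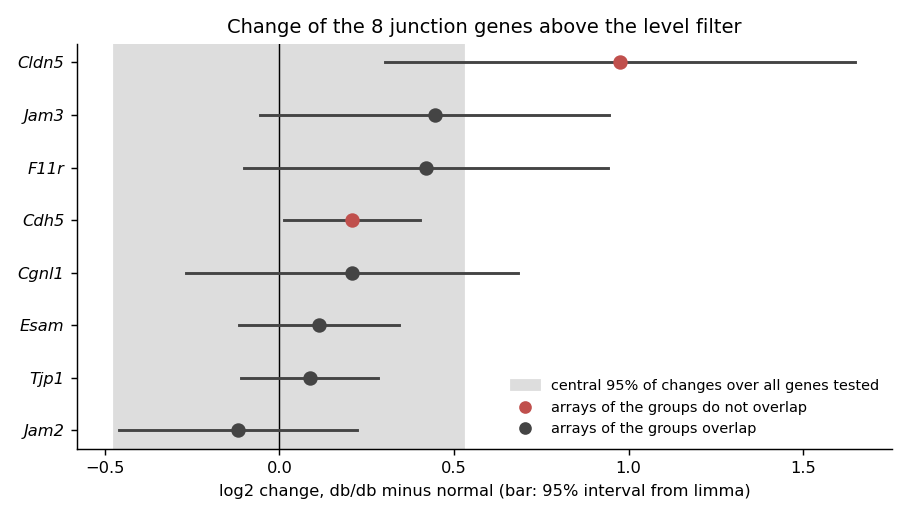
Log2 change, db/db minus normal, of the 8 junction genes above the level (points) with the 95% interval from limma (bars), over the central 95% of changes of all genes tested (grey, from -0.47 to 0.53). Cldn5 alone lies outside the grey band, and the intervals of Cldn5 and Cdh5 do not reach 0.

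The arrays of the 8 tested genes were also ordered, a description made after the values were seen. A db/db array was the highest of the 6 for 8 of the 8 genes, compared with 48.3% of all genes tested, and a normal array was the lowest for 7, compared with 56.8%. Db/db replicate 1 was the highest for 5 genes, *Cldn5*, *F11r*, *Jam3*, *Cgnl1* and *Cdh5*, compared with 17.6% of all genes. Db/db replicate 2 was the highest for *Jam2*, *Esam* and *Tjp1*, compared with 14.7%. Normal replicate 2 was the lowest for *F11r*, *Jam3*, *Cgnl1* and *Cdh5* (20.8% of all genes) and normal replicate 3 for *Cldn5*, *Esam* and *Tjp1* (22.4%), while *Jam2* was lowest in db/db replicate 1.

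**Figure D3:**
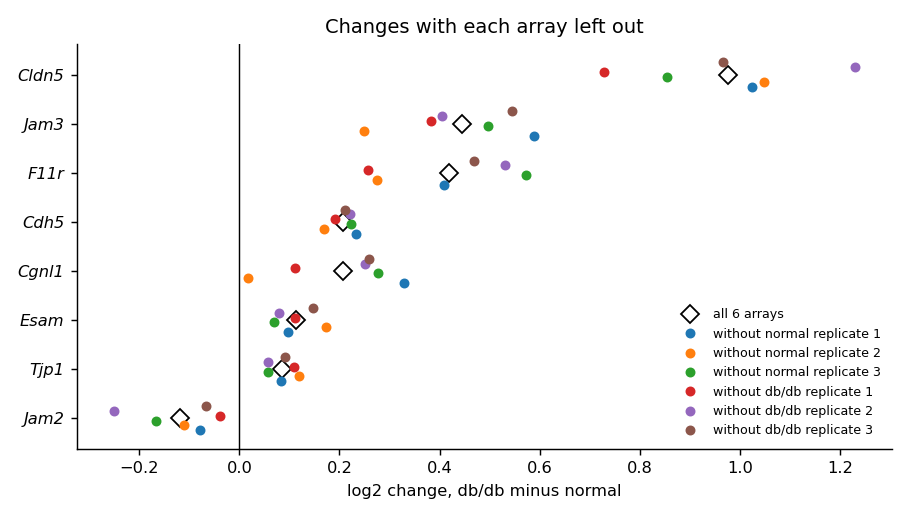
Log2 change, db/db minus normal (horizontal axis), of the 8 junction genes with all 6 arrays (diamonds) and with each array left out (coloured points). The change of Cgnl1 falls to 0.02 without normal replicate 2, that of Jam3 to 0.25, and that of Cldn5 stays between 0.73 and 1.23.

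The other genes of the junctions were taken from lists by role, and 95 of them had a probeset of their own, of which 73 were above the level. Among these 73 limma called 0 after adjustment, and 4 had an unadjusted p under 0.05, 2 higher and 2 lower, or 5.48% against 6.57% of all genes. Their median change was 0.02 on the log2 scale, beside 0.01 over all genes.

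Of 19 other claudins 9 were above the level and 0 of 9 had an unadjusted p under 0.05. *Cldn15*, a channel-forming claudin, had the smallest p at a change of 0.15 ± 0.09, and *Cldn19*, a claudin of the thick ascending limb, followed at -0.11 ± 0.09 (log2 change ± SE). The claudins below the level were *Cldn1*, *Cldn2*, *Cldn6*, *Cldn7*, *Cldn8*, *Cldn9*, *Cldn10*, *Cldn16*, *Cldn18* and *Cldn23*, most of them claudins of epithelia. Of 9 other membrane proteins of tight junctions 4 were above the level, with 0 of 4 under 0.05. *Marveld2*, the tricellulin of tricellular contacts, had a change of -0.39 ± 0.34, and *Ildr1*, which recruits it, of 0.08 ± 0.09.

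Of 20 other scaffold and polarity genes 19 were tested, and 1 was higher and 1 lower at an unadjusted p under 0.05. *Magi3*, a membrane-associated scaffold, was 9.49, 9.15 and 9.12 in normal and 9.48, 9.88 and 9.75 in db/db replicates 1 to 3, with normal replicate 1 just above db/db replicate 1 (change 0.45 ± 0.16, limma adjusted p = 0.75). *Mpdz*, a multi-PDZ protein that binds claudins and JAM-A, was 9.16, 9.48 and 9.15 in normal and 8.74, 8.95 and 9.06 in db/db, with no overlap (change -0.35 ± 0.14, limma adjusted p = 0.775).

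Of 11 further cadherin and catenin genes 7 were tested, with 0 of 7 under 0.05. *Vcl*, the actin linker vinculin, had a change of 0.25 ± 0.18 and *Afap1*, an actin filament binder, of -0.11 ± 0.09. The catenins that bind VE-cadherin lay close to 0, with *Ctnnb1* at -0.05, *Ctnna1* at -0.05, *Ctnnd1* at 0.07 and *Jup* at -0.07 (log2 changes), and *Cdh1* and *Cdh2*, the epithelial and neural cadherins, were below the level.

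Of 9 nectins and other border proteins 8 were tested and 1 was higher at an unadjusted p under 0.05. This was *Mcam*, an adhesion molecule of endothelial borders, at 10.38, 10.62 and 10.62 in normal and 11.36, 11.16 and 11.12 in db/db replicates 1 to 3. All db/db arrays lay above all normal arrays, by 0.50 at the closest (change 0.67 ± 0.12, limma adjusted p = 0.376). *Nectin3*, which links to the actin binder afadin, had the next smallest p at a change of -0.44 ± 0.21 (limma adjusted p = 0.814).

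Of 28 regulators of VE-cadherin 27 were tested and 1 was lower at an unadjusted p under 0.05. *Tek*, the angiopoietin receptor Tie2 that stabilises endothelial borders, was 12.59, 12.55 and 12.77 in normal and 12.18, 12.48 and 12.26 in db/db replicates 1 to 3, without overlap (change -0.33 ± 0.12, limma adjusted p = 0.754). The *Tek* promoter also drives the GFP of the sort. *Arhgap29* had a change of 0.20 ± 0.09 (limma adjusted p = 0.787), and *Ptprb*, the phosphatase VE-PTP that binds VE-cadherin, of -0.05 ± 0.08.

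**Figure D4:**
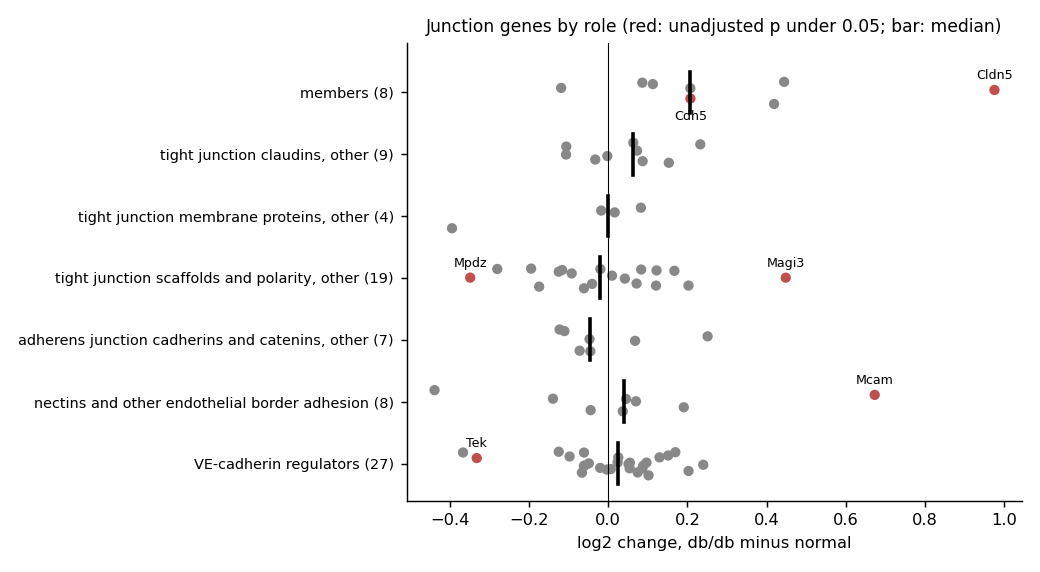
Log2 change, db/db minus normal (horizontal axis), of the members and of the other junction genes by role, with the number tested in brackets, black bars at each list's median, and genes of an unadjusted p under 0.05 in red. Cldn5 lies farthest to the right, and of the other lists' genes Mcam and Magi3 are red on the right, Mpdz and Tek on the left.

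The genes whose profile over the 6 arrays was closest to that of *Cldn5* were found among the 12763 genes tested by the mean absolute difference of log2 deviations from each gene's mean. They were *Tmem252* (0.139), the probeset annotated as *Mir15a* (0.144) and *Tmem229b* (0.159). Because the search was for this profile, all 3 had higher means in db/db. For *Tmem229b*, above the level in all 6 arrays, the mean change was 1.12. *Mir15a* was below the level in each normal array and *Tmem252* in 2 of 3, so both entered the search through their db/db arrays and no change is given for them.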

How the data were processed

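RNA of sorted GEC was amplified with a NuGEN kit and hybridised to Affymetrix Mouse Gene 1.0 ST arrays, 1 array per sample. The deposited values are log2 probeset signal, which the authors' methods describe as RMA normalised in GeneSpring; the notes that the submitters gave name MAS5 instead, and this was not settled. The sorted values of the arrays differed by at most 0.114 from those of normal replicate 1, so each change is relative to the rest of the same array, and no further normalisation was applied. The number of arrays limits the precision.

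Of 35557 probesets 21789 had a single gene symbol, and a gene was read by its probeset of highest mean. A probeset was kept if at least 3 arrays reached a linear signal of 100 (20661 probesets, 12763 genes). The groups, taken from the sample labels, were compared with limma 3.58.1 in R 4.3.3 (lmFit and eBayes, two-sided, Benjamini-Hochberg over all 20661 probesets, threshold 0.05). Errors are SD over 3 arrays beside levels and moderated SE beside changes. For 3 against 3 arrays exact permutation has a smallest p of 0.1. The limma p-values set each group difference against the spread between these sorted samples, moderated over probesets. As the number of mice per sample is not known, this need not be the spread between mice. The fit was tested on simulated data with independent noise and no outlying array, so that test does not cover an array such as normal replicate 2. Every gene of the 9 is reported, and of each other junction list the 2 genes with the smallest p, with *Ptprb* and the catenins named after their values were seen, as were the markers given by name. Members and lists were chosen with earlier results of these data known. The motifs were chosen after the sequences were seen. Figures were drawn with matplotlib 3.10.9. The alternatives were another normalisation, level filter, variance prior, test, probeset choice or array weights, a replicate block and leaving out each array. Centring on pan-endothelial markers was chosen after seeing the data.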

Additional observations from a re-analysis of the deposited data

How the results depend on the processing

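The direction of change of the 8 tested genes was the same in all 19 alternative fits, which gave 151 values (*Cgnl1* had none at a level filter of 200), and 0 of these passed after adjustment, with adjusted p from 0.474 to 0.993 over all settings but that with no level filter, where it was 0.863 or more. The members at an unadjusted p under 0.05 numbered 2, and 1 or 2 when each array was left out. *Cldn5* was among them in each setting, while *Cdh5* was lost when any array was left out. *Jam3* came in without normal replicate 1 and *F11r* without normal replicate 3. The other junction genes at that p numbered 4, and 2 to 4 when each array was left out. No sign of pairing by replicate number was seen. Deviations of same-numbered arrays correlated by -0.004, 0.04 and -0.03, and 2 of 6 arrays correlated best with their own number. With 3 arrays per group this cannot exclude a pairing. With the replicate number as a block the members at an unadjusted p under 0.05 numbered 1 (*Cldn5*) and the other junction genes 1. Over all probesets 0 were called after adjustment in the fit used here and 1, which is no junction gene, both with 1 probeset per gene and with only probesets that have a single gene symbol. The methods' t-test at p under 0.05 and over 1.5-fold kept 313 probesets, *Cldn5* among them. The paper reports fewer probesets for its own screen at these thresholds, and the reason was not examined. With 3 arrays per group and a residual SD of 0.39 for *Cldn5*, against a median of 0.16 over genes, the precision is limited.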
